A study of Mus musculus with 8 samples.

Results

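The integrins and cadherins are the 43 genes, of 18193 measured on the arrays, whose symbols name an integrin alpha or beta chain or a numbered cadherin, leaving out Itgax and Cdh5, which were excepted by name. They comprise 23 integrin and 20 cadherin genes, read by 90 probe sets. The rule goes by gene name and uses no measured value, though the family was picked for description with earlier results of these data known. Affymetrix mouse arrays read the RNA of GFP-positive cells that FACS had separated from kidneys of FSP1-eGFP mice on a C57BL/6 background, in which the promoter of FSP1 (S100a4) drives the green reporter. The 5 ischemic samples were left kidneys taken 3 days after a 45 minute clamp on the renal vessels, both artery and vein. The 3 controls are kidneys that the titles call Normal and another label calls sham. All mice were labelled male and 6 months old, and all carried the reporter. Those with surgery also received the pain relief buprenorphine.

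Integrins are receptors made of an alpha and a beta chain that join a cell to matrix or to another cell, and the pairing of chains sets the ligand. On leukocytes the beta-2 and beta-7 integrins bind counter-receptors on vessel wall and epithelium during entry into tissue. Cadherins are calcium-dependent receptors that mostly pair with the same cadherin on a neighbouring cell, and in the kidney tubule they hold the epithelial sheet together through catenins. The question is which adhesion receptors of the sorted cells had other levels during acute injury than in kidneys without it.

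Values are log2(intensity + 16) after quantile normalization, so that a deposited intensity of 1, near the lowest in the table, becomes 4.09, and differences of dim genes are understated. Brightness of 1 probe set against another is no measure of transcript number, and a gene is called dim here only where its mean lies below the median of all genes (5.93). Of the 43 genes, 23 were dim, among them 16 of the 20 cadherins and 7 of the 23 integrins. The sorted cells carried signal of several cell types. None of the 10 macrophage and monocyte markers was dim, with list means of 9.71 to 10.68 in ischemic and 9.06 to 9.36 in normal arrays, and none of the 9 proximal tubule markers was, with 5.64 to 7.97 in ischemic and 9.10 to 10.95 in normal arrays. Of 10 fibroblast markers 5 were not dim, with list means of 5.47 to 6.84 in ischemic and 5.35 to 6.04 in normal arrays. Thy1 had the highest mean of the 10, at 8.21, 7.39, 6.89, 6.86 and 6.76 in ischemic and 7.94, 6.77 and 6.99 in normal arrays. It was highest in ischemic 1, ischemic 2 and normal 1, the arrays that also held the highest T and NK cell marker means. The part of T cells in the Thy1 values was not tested. Lum, a fibroblast matrix gene, had the lowest, near the floor, at 4.18 to 4.79 in ischemic and 4.36 to 4.57 in normal arrays. Differences were positive in 8 of the 10, with a median of 0.57, and none reached an unadjusted limma p under 0.05. The ischemic array numbered 1 stood apart: across genes its correlation with each other array had a median of 0.753, and the same measure lay between 0.850 and 0.913 for the remaining 7. Ischemic 5 and normal 3 were each the closest array to the other, at a correlation of 0.976, the highest between any arrays. Thus 1 ischemic array was closer to a normal array than to any ischemic array. Xist, the RNA of the inactive X chromosome, read 11.21 in ischemic 1, 9.39 in ischemic 2 and 11.01 in normal 1, and 4.49 to 4.96 in the other 5 arrays, although all mice were labelled male. Y-linked Eif2s3y read 5.84 to 8.87 in ischemic and 5.84 to 8.71 in normal arrays, lowest in ischemic 1 and normal 1. These 3 are called the high-Xist arrays here and the other 5 the low-Xist arrays. For many, not all, of the named genes that move with this split, the difference within each set is given. In sorted pools, fewer cells of a type and less RNA per cell cannot be told apart. The labels do not say that the normal kidneys came from separate mice, so p-values measure the spread between these samples, which may in part be technical.

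No integrin or cadherin passed limma over all 18193 genes at an adjusted p of 0.05, and neither did any other gene (background 0%). The lowest adjusted p among the members was 0.228. At an unadjusted limma p under 0.05, 2 of the 43 members were lower in ischemic arrays (4.65%, against a background of 5.02% of all genes) and 0 were higher (background 2.11%). The genes were Cdh16 and Itgb6. The groups did not overlap in 2 members that were lower, again Cdh16 and Itgb6 (4.65%, background 3.44%), and in 1 that was higher, Itga10 (2.33%, background 1.89%). These shares lie near the background, so the family as a whole is not set apart by its counts. Differences were negative in 21 members (48.8%, background 45.2%) and positive in 22 (51.2%, background 54.8%). The median difference over the 43 genes was 0.072, against 0.041 over all genes. The median was 0.13 over the integrins and −0.010 over the cadherins.

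**Figure D1:**
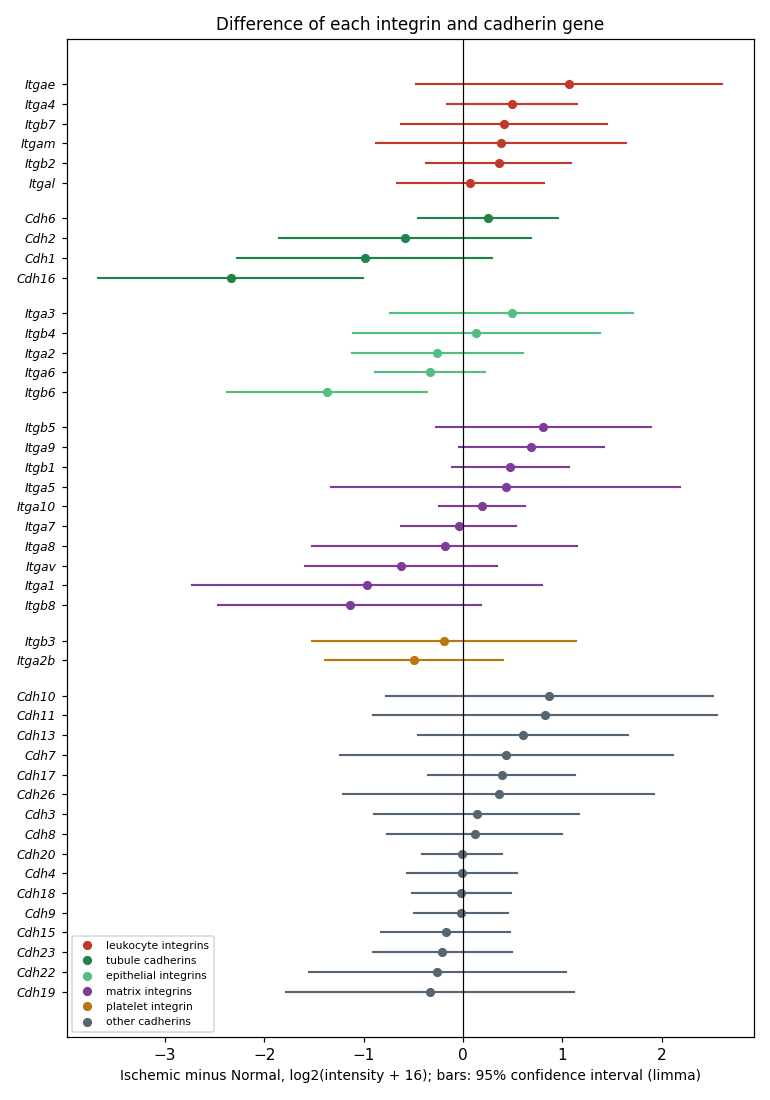
Ischemic minus Normal difference on the log2(intensity + 16) scale for each of the 43 genes, grouped by role, with 95% confidence intervals from limma (5 ischemic and 3 normal arrays). The intervals of Cdh16 and Itgb6 lie below 0, and all others span it, before any adjustment for multiple testing.

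The cadherins of the kidney tubule gave the largest difference of any member. Cdh16, or kidney-specific cadherin, is found on the basolateral membrane of tubule epithelium. It read 6.66, 8.09, 7.67, 5.43 and 7.80 in the 5 ischemic arrays, against 9.84, 9.34 and 9.23 in the 3 normal arrays. The deposited intensities behind these values were 74.99, 234.3, 192.2, 23.0 and 217.7 in ischemic and 1013, 775.0 and 629.5 in normal arrays. Every ischemic array thus lay below every normal array, with ischemic 4 the lowest. The difference was −2.34 ± 0.59 (SE, n = 5 and 3; limma adjusted p = 0.228), with a 95% interval of −3.68 to −1.0. The two-sided exact permutation test gave 0.0179, the smallest value that the 56 splits of the 8 arrays allow, unadjusted. Leaving out 1 array at a time, the difference lay between −2.58 and −1.91. It was −2.32 within the 5 low-Xist arrays and −2.46 within the 3 high-Xist arrays. The markers of tubule segments had lower values in ischemic arrays as well. All 9 proximal tubule markers had negative differences, with a median of −3.60. All 7 markers of the thick limb and distal tubule did too, with a median of −2.47 and list means of 6.32 to 7.28 in ischemic and 8.75 to 9.11 in normal arrays. Of 6 measured collecting duct markers 5 did, with a median of −0.76. At an unadjusted limma p under 0.05, 9 proximal tubule, 6 thick limb and distal and 2 collecting duct markers were lower (5.02% over all genes). Groups were apart on the lower side in 8, 6 and 1 markers of these lists (3.44% over all genes). The part of the tubule segments in the Cdh16 difference was not tested.

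The other tubule cadherins overlapped between the groups. Cdh1, or E-cadherin, the main cadherin of distal tubule and collecting duct, read 5.32, 5.88, 7.36, 5.05 and 6.84 in ischemic and 7.01, 6.54 and 7.70 in normal arrays. Ischemic 3 and 5 reached into the normal range, and ischemic 1, 2 and 4 lay below it. The difference was −0.99 ± 0.56 (SE; limma adjusted p = 0.846; 95% interval −2.28 to 0.29), and it was −1.31 without ischemic 3 and −0.68 without normal 3. Within the high-Xist arrays it was −1.41. Cdh2, or N-cadherin, which the mouse proximal tubule carries in addition to mesenchymal and nerve cells, read 4.94, 4.99, 5.29, 4.47 and 5.27 in ischemic and 4.27, 7.08 and 5.37 in normal arrays. The normal arrays held both its lowest and its highest value. Its difference of −0.58 ± 0.55 (SE) became 0.17 without normal 2 and 0.69 within the high-Xist arrays. Without normal 1 it was −1.23, and its other probe set gave 0.24. Cdh6, or K-cadherin, a cadherin of the developing nephron, was dim at 4.22, 5.38, 4.22, 4.96 and 4.47 in ischemic and 4.47, 4.41 and 4.31 in normal arrays. It differed by 0.25 ± 0.31 (SE), by 0.070 without ischemic 2, and its other probe set gave −0.23. The 4 genes had 3 negative differences and a median of −0.79.

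**Figure D2:**
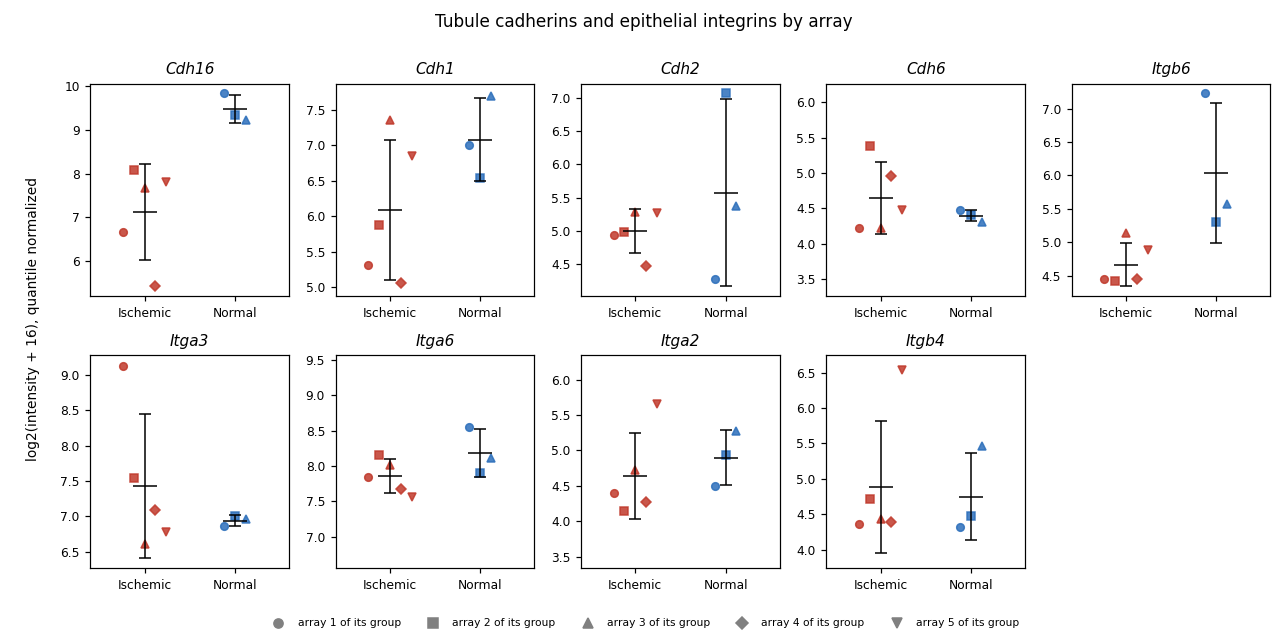
Levels of the 4 tubule cadherins and 5 epithelial integrins in each array, as log2(intensity + 16), with ischemic arrays (n = 5) on the left and normal arrays (n = 3) on the right of each panel, and black bars for the mean ± SD. Each panel has its own axis range, and only Cdh16 and Itgb6 have groups that do not overlap.

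Among the epithelial integrins, Itgb6 was lower in the ischemic arrays. It encodes the beta-6 chain, which pairs with alpha-v on epithelium and releases active TGF-beta from its latent form. Its values were 4.44, 4.42, 5.14, 4.45 and 4.88 in ischemic and 7.23, 5.30 and 5.57 in normal arrays. The highest ischemic array, number 3, lay just below the lowest normal array, number 2. The deposited intensities were 4.93 to 18.5 in ischemic and 21.1 to 134.5 in normal arrays, so the gene was dim. The difference was −1.37 ± 0.44 (SE; limma adjusted p = 0.429; 95% interval −2.38 to −0.36), with an exact permutation p of 0.0179, unadjusted. It rested in part on normal 1 and was −0.77 without it. It was −0.61 within the low-Xist arrays and −2.80 within the high-Xist arrays, where normal 1 is the only normal array. With a pseudocount of 1 it was −2.30 and with 64 it was −0.68. Its second probe set gave −1.14 ± 0.34 (SE), with overlapping groups.

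RefSeq (build GRCm38.p6) gives Itgb6 more than 1 start on the minus strand of chromosome 2, and the 250 bases before each of the starts in its table are printed because Itgb6 is the only member with groups apart on the lower side that has an entry there. Capitals mark GAGGAA or its reverse complement, the core of sites that ETS factors such as PU.1 bind, and GTTAAT or its reverse complement, a part of the HNF1 site.
Itgb6, first start, chr2:60722604-60722853: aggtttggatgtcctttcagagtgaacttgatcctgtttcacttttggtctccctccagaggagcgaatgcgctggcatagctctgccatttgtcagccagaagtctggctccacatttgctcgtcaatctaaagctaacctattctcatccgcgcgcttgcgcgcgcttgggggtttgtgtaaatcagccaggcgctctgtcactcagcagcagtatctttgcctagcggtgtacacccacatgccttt
Itgb6, inner start, chr2:60673694-60673943: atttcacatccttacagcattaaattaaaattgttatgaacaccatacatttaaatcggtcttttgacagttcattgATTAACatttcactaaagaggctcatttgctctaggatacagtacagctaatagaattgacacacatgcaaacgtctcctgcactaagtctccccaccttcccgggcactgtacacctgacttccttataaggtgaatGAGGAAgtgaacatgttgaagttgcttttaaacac
Neither motif matched before the first start, and each matched once before the inner start. Of 32851 promoter windows in the table, 23.3% held GAGGAA on either strand and 6.43% held GTTAAT. Of the 43 members 27 had an entry, and 13 of these held GAGGAA and 3 held GTTAAT before at least 1 of their starts. The percentages count single windows and the member numbers count genes, some with several windows, so they are not to be compared. The motifs do not overlap each other in these sequences, and a match is only a description of the letters.

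The remaining epithelial integrins did not separate the groups. Itga6, the alpha-6 chain of laminin receptors, read 7.85, 8.16, 8.02, 7.68 and 7.56 in ischemic and 8.56, 7.90 and 8.11 in normal arrays. Its difference was −0.33 ± 0.24 (SE; limma adjusted p = 0.917), −0.15 without normal 1, and its other probe set gave −0.63. Centred on ribosomal protein genes it was one of 5 members lower at an unadjusted p under 0.05, a scaling under which the median of all genes lay at −0.10. Itga3, the alpha-3 chain that binds laminin under tubules and podocytes, read 9.13, 7.55, 6.61, 7.09 and 6.78 in ischemic and 6.86, 7.0 and 6.97 in normal arrays. Ischemic 1 was far above all other arrays. The difference of 0.49 ± 0.54 (SE) was 0.066 without ischemic 1. It was −0.16 within the low-Xist arrays and 1.48 within the high-Xist arrays. Itga2, the alpha-2 chain of a collagen receptor, was dim at 4.40, 4.14, 4.73, 4.27 and 5.65 in ischemic and 4.49, 4.93 and 5.27 in normal arrays, with a difference of −0.26 ± 0.38 (SE) that was −0.074 without normal 3. Itgb4, the partner of alpha-6 in hemidesmosomes, read 4.36, 4.71, 4.43, 4.39 and 6.53 in ischemic and 4.32, 4.47 and 5.46 in normal arrays. Only ischemic 5 lay above the median level of 5.93. Its difference of 0.13 ± 0.54 (SE) became −0.28 without ischemic 5. The median over the 5 genes was −0.26.

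All 6 leukocyte integrins measured had positive differences (54.8% over all genes), and none passed. The smallest was 0.072 for Itgal, whose second probe set gave −0.053. The median of the 6 was 0.40, and none of the 6 was dim. The mean of the list per array was 8.84, 9.25, 8.88, 8.63 and 7.95 in ischemic and 7.94, 8.5 and 8.29 in normal arrays. Ischemic 5 lay with normal 1 at the bottom, so the groups overlapped. Centring on ribosomal protein genes gave a list median of 0.12, centring on array medians gave 0.24, and it was 0.14 within the low-Xist arrays and 0.94 within the high-Xist arrays. The macrophage and monocyte markers had positive differences in 10 of 10 genes, with a median of 0.83. At an unadjusted limma p under 0.05, 5 of the 10 were higher (2.11% over all genes), and 4 had groups apart (1.89% over all genes). The means of the B cell markers were 8.68, 7.34, 5.15, 5.10 and 4.88 in ischemic and 6.57, 5.16 and 5.00 in normal arrays, so that they were highest in ischemic 1, ischemic 2 and normal 1, the arrays with Xist signal. The T and NK cell markers had means of 7.54, 6.29, 5.46, 5.72 and 4.85 in ischemic and 6.97, 5.02 and 5.06 in normal arrays, with the same arrays highest. The part of these cells in the integrin values was not tested.

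Itgb2, the beta-2 chain (CD18) shared by the leukocyte integrins LFA-1 and Mac-1, read 10.53, 11.32, 11.15, 10.64 and 10.09 in ischemic and 10.04, 10.59 and 10.54 in normal arrays. Ischemic 2 and 3 lay well above the normal range and ischemic 1 and 5 inside it. The difference was 0.36 ± 0.32 (SE; limma adjusted p = 0.942), with a 95% interval of −0.37 to 1.09, and centring on ribosomal protein genes gave 0.033. It was 0.18 without normal 1, 0.065 within the low-Xist arrays and 0.89 within the high-Xist arrays. Itgal, the alpha chain of LFA-1, which lymphocytes and monocytes use to bind ICAM-1, read 9.32, 9.27, 8.55, 8.97 and 8.35 in ischemic and 8.26, 9.12 and 9.07 in normal arrays. Both groups spanned nearly the same range. Its difference of 0.072 ± 0.32 (SE; 95% interval −0.67 to 0.81) was −0.13 with arrays centred on their medians and −0.25 centred on ribosomal protein genes. It was −0.48 within the low-Xist arrays and 1.03 within the high-Xist arrays.

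Itgam, the alpha chain of Mac-1 (CD11b) on macrophages, monocytes and neutrophils, read 7.37, 8.83, 8.16, 7.51 and 6.22 in ischemic and 7.83, 7.11 and 6.78 in normal arrays. The ischemic arrays held both the highest and the lowest value. The difference was 0.38 ± 0.55 (SE; limma adjusted p = 0.960), and it was 0.077 without ischemic 2 and 0.73 without ischemic 5. The neutrophil marker means overlapped, at 5.24 to 7.13 in ischemic and 5.74 to 6.42 in normal arrays. The 250 bases before the Itgam start are shown because myeloid cells are known to switch this gene on through a PU.1 site near its start, and GAGGAA or its reverse complement is in capitals.
Itgam, chr7:128062390-128062639, plus strand: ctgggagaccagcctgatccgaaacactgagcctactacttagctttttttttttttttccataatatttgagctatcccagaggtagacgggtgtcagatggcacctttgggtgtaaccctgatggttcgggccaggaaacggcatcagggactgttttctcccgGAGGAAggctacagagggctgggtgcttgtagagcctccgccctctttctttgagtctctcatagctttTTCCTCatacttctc
The motif matched at 2 places, beginning 84 and 15 bases before the start. The table held windows for 2 other leukocyte integrins, Itga4 and Itgb7, without a match.

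Itga4, the alpha-4 chain that binds VCAM-1 with beta-1 and MAdCAM-1 with beta-7, was at 8.91, 9.72, 9.0, 9.22 and 8.61 in ischemic and 8.33, 8.57 and 8.89 in normal arrays. Only ischemic 5 lay within the normal range. The difference was 0.50 ± 0.29 (SE; limma adjusted p = 0.854), with an exact permutation p of 0.0893, unadjusted, and all 5 of its probe sets were positive, from 0.38 to 1.17. Centring on ribosomal protein genes gave 0.18, and the difference was 0.21 within the low-Xist arrays and 0.99 within the high-Xist arrays. Itgb7, the beta-7 chain of gut and mucosal homing, read 9.34, 9.28, 8.91, 10.19 and 7.87 in ischemic and 8.75, 8.67 and 8.69 in normal arrays. Of the ischemic arrays, 4 lay above all normal arrays, and ischemic 5 lay below them. The difference was 0.41 ± 0.46 (SE), 0.72 without ischemic 5 and 0.14 without ischemic 4. Itgae, the alpha-E chain (CD103) that pairs with beta-7 and binds E-cadherin on epithelium, read 7.57, 7.10, 7.52, 5.26 and 6.54 in ischemic and 4.44, 6.94 and 5.79 in normal arrays. Normal 1 was near the floor, at a deposited intensity of 5.54. Its difference of 1.07 ± 0.67 (SE; limma adjusted p = 0.873) was the largest of the leukocyte integrins, and it was 0.43 without normal 1. It was 0.070 within the low-Xist arrays and 2.89 within the high-Xist arrays, where normal 1 is the only normal array.

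**Figure D3:**
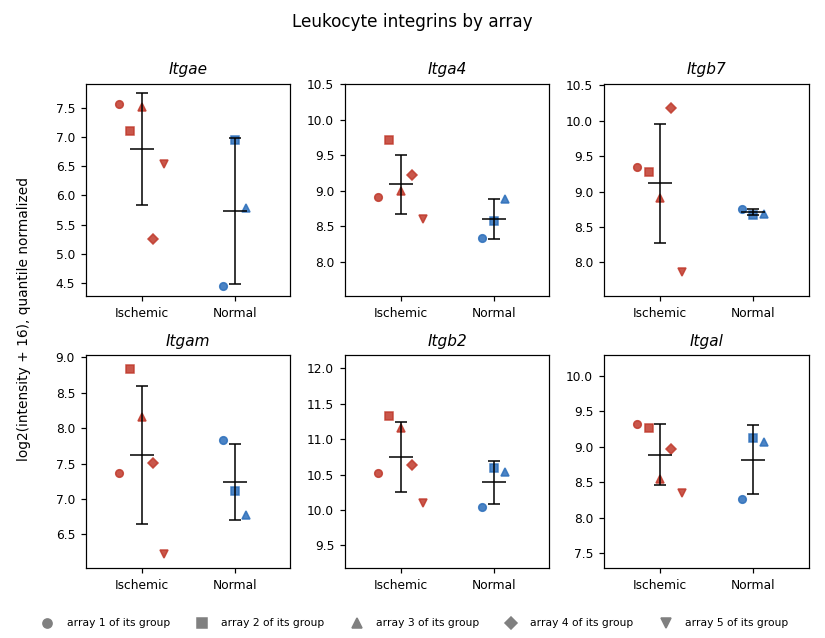
Levels of the 6 leukocyte integrins in each array, as log2(intensity + 16), with ischemic arrays (n = 5) on the left and normal arrays (n = 3) on the right of each panel, and black bars for the mean ± SD. The groups overlap in every panel, and in Itgb7 the 3 normal arrays lie within 8.67 to 8.75 while the ischemic arrays run from 7.87 to 10.19.

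The integrins that join cells to matrix split in direction, with 5 positive and 5 negative differences among 10 genes and a median of 0.071. Itgb1, the beta-1 chain common to most matrix receptors, read 8.85, 8.83, 9.07, 8.90 and 9.24 in ischemic and 8.10, 8.35 and 9.05 in normal arrays. The ischemic arrays lay close together and normal 3 lay among them. The difference was 0.48 ± 0.26 (SE; limma adjusted p = 0.827; 95% interval −0.12 to 1.07), 0.75 without normal 3 and 0.28 without normal 1. All 6 of its probe sets were positive, from 0.13 to 0.58. Itgav, the alpha-v chain of receptors for vitronectin and latent TGF-beta, read 7.76, 8.80, 9.45, 7.77 and 8.81 in ischemic and 9.46, 8.82 and 9.15 in normal arrays. Its difference was −0.63 ± 0.42 (SE; limma adjusted p = 0.896), and its 5 probe sets ran from −0.63 to 0.40, so the sign is that of the probe set used. It was −0.31 within the low-Xist arrays and −1.18 within the high-Xist arrays. Itga8, the nephronectin receptor chain of mesangial and other mesenchymal cells, read 4.62, 6.93, 6.40, 6.38 and 6.55 in ischemic and 5.52, 6.20 and 7.36 in normal arrays. Its difference of −0.18 ± 0.58 (SE) became 0.21 without ischemic 1 and 0.32 without normal 3. Itga10, a collagen receptor chain of cartilage, was the only member higher with groups apart, at 4.86, 4.58, 4.45, 4.5 and 4.5 in ischemic and 4.40, 4.41 and 4.36 in normal arrays. All of its deposited intensities lay between 4.51 and 18.5, at the dim end of the table, and the groups overlapped with arrays centred on their medians or on ribosomal protein genes.

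The 4 matrix integrins with the largest differences are named after their values were seen. Itgb5, a vitronectin receptor chain that pairs with alpha-v, read 6.81, 8.82, 8.78, 8.14 and 7.82 in ischemic and 7.48, 6.76 and 7.55 in normal arrays. Ischemic 1 alone lay inside the normal range. Its difference was 0.81 ± 0.47 (SE; limma adjusted p = 0.857), and without ischemic 1 it was 1.12 with the groups apart. It was 1.09 within the low-Xist arrays and 0.33 within the high-Xist arrays. Itga9, which binds tenascin-C and osteopontin, read 7.79, 8.43, 8.26, 8.85 and 8.94 in ischemic and 7.37, 7.79 and 8.14 in normal arrays, for a difference of 0.69 ± 0.32 (SE; limma adjusted p = 0.739). In Itga9, too, ischemic 1 was the only ischemic array inside the normal range. On the lower side, Itgb8, which pairs with alpha-v and binds latent TGF-beta, was dim at 4.12, 5.59, 5.56, 4.10 and 4.76 in ischemic and 7.30, 5.09 and 5.50 in normal arrays. Its difference of −1.14 ± 0.58 (SE; limma adjusted p = 0.783) was −0.47 without normal 1, the array that also held the highest Itgb6. It was −0.50 within the low-Xist arrays and −2.45 within the high-Xist arrays. Itga1, a collagen receptor chain, read 4.85, 7.08, 6.65, 7.19 and 8.81 in ischemic and 7.12, 8.06 and 8.47 in normal arrays. Its difference of −0.97 ± 0.77 (SE) was −0.45 without ischemic 1, and its second probe set gave −1.97. The remaining matrix integrins, Itga5 and Itga7, differed by 0.43 and −0.046.

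The platelet integrin chains, Itga2b and Itgb3, gave −0.50 ± 0.39 and −0.20 ± 0.58 (SE). Itga2b read 4.49 to 6.30 in ischemic and 6.00 to 6.27 in normal arrays, and Itgb3, which endothelium and macrophages also express, read 6.24 to 7.93 in ischemic and 6.03 to 8.25 in normal arrays. All 5 measured platelet markers were dim.

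The other 16 cadherins include those of nerve, muscle, gut and cartilage lineages, and 14 of them were dim. Their differences ran from −0.34 to 0.87, with 8 on each side and a median of 0.055, and no groups were apart. One array gave most of their spread. Ischemic 1 had the highest value of the 8 arrays in 13 of the 16 genes (81.2%), against 25.1% of all genes and 33.2% of the genes below the median level. Cdh11, a mesenchymal cadherin, read 8.18 in ischemic 1, 4.71 to 5.27 in the other 4 ischemic arrays and 4.24 to 5.47 in the normal arrays. Cdh10 read 7.82 in ischemic 1, 4.55 to 5.11 in the other ischemic arrays and 4.24 to 4.64 in the normal arrays. Cdh7 read 7.36 in ischemic 1, 4.10 to 4.41 in the other ischemic arrays and 4.13 to 4.71 in the normal arrays. These 3 genes are thus above the dim range in 1 array only. Their other probe sets did not share the sign throughout, with lowest differences of −0.77 for Cdh11, −0.26 for Cdh10 and −0.13 for Cdh7. Cdh3, or P-cadherin, of skin and other epithelia, and Cdh13, a cadherin without a cytoplasmic tail that endothelium and smooth muscle carry, were the members of this group at or above the median level. Cdh3 read 5.44 to 7.34 in ischemic and 5.67 to 6.24 in normal arrays, and Cdh13 read 5.02 to 6.87 in ischemic and 5.01 to 6.03 in normal arrays.

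**Figure D4:**
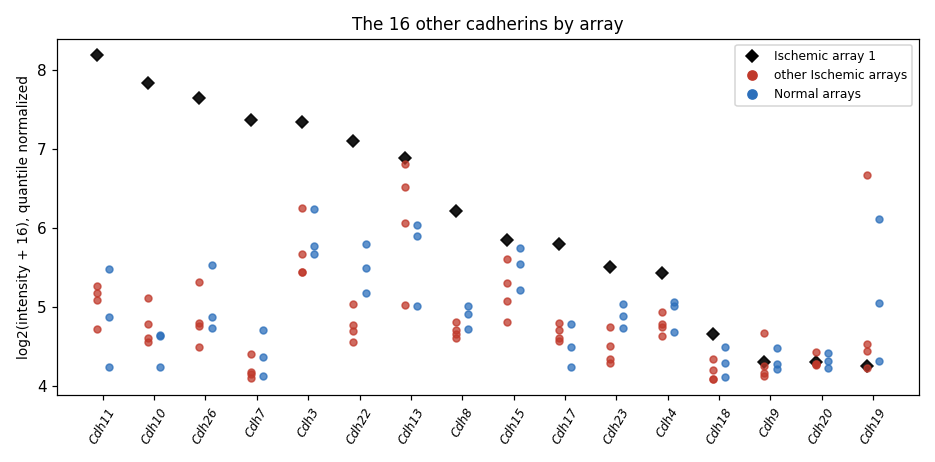
Levels of the 16 cadherins outside the tubule group in each array, as log2(intensity + 16), with ischemic array 1 as black diamonds, the other 4 ischemic arrays in red and the 3 normal arrays in blue. Ischemic 1 is highest in 13 of the 16 genes, and the remaining arrays mostly lie below 6.

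Different probe sets of a gene disagreed often. Of the 24 members with several probe sets, 12 had differences of both signs, 8 of them cadherins. The 4 integrins were Itga3, Itga5, Itgal and Itgav. Every probe set of Itgb5 and Itga9 was positive, with Itgb5 from 0.50 to 1.17 and Itga9 from 0.43 to 0.69.

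The molecules that work with these receptors gave 0 genes past limma over all genes. Of 20 measured genes that act on the integrin side, such as talins, kindlins and kinases of focal adhesions, 2 were lower and 0 were higher at an unadjusted p under 0.05 (over all genes 5.02% and 2.11%), with a median of 0.078. These counts depended on processing: with the mean of probe sets 1 was lower and 2 were higher, and with a pseudocount of 64, 2 were lower and 1 was higher. Tln2, a talin that couples integrins to actin, read 6.19, 4.66, 5.42, 4.39 and 6.74 in ischemic and 8.0, 8.64 and 6.49 in normal arrays. Ischemic 5 lay above normal 3, and the difference was −2.23 ± 0.65 (SE; limma adjusted p = 0.352). It was −1.86 with the mean of its probe sets, −1.36 with a pseudocount of 1 and −2.84 without normal 3. Fermt2, kindlin-2, an integrin activator of epithelial and mesenchymal cells, read 4.39, 5.71, 7.13, 5.34 and 9.05 in ischemic and 8.71, 8.38 and 8.65 in normal arrays. Ischemic 5 was the highest array of all. The difference of −2.25 ± 0.93 (SE; limma adjusted p = 0.658) was −1.15 with the mean of its probe sets and, within the low-Xist and high-Xist arrays, −1.34 and −3.66.

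Of 12 genes on the cadherin side, 10 had negative differences (45.2% over all genes) and 2 were lower at an unadjusted p under 0.05 (5.02% over all genes), with a median of −0.40. Nectin3, a nectin of adherens junctions, read 5.36, 5.81, 6.29, 6.31 and 7.22 in ischemic and 8.33, 8.13 and 7.57 in normal arrays. The groups were apart, and the difference was −1.81 ± 0.41 (SE; limma adjusted p = 0.189; exact permutation p = 0.0179, unadjusted). It was −1.19 with the mean of its probe sets, −1.24 within the low-Xist arrays and −2.75 within the high-Xist arrays. Pkp4, a p120-related protein of cell junctions, read 8.27, 8.46, 8.92, 9.33 and 9.55 in ischemic and 9.76, 10.03 and 9.92 in normal arrays. Its groups were also apart, with a difference of −0.996 ± 0.33 (SE; limma adjusted p = 0.443). The Pkp4 difference was −0.71 within the low-Xist arrays and −1.39 within the high-Xist arrays. Both Nectin3 and Pkp4 are also expressed outside the tubule. Of 19 measured integrin ligands 12 had negative differences and none reached an unadjusted p under 0.05, with a median of −0.18. The means of this list were 5.93, 6.30, 6.82, 6.96 and 7.61 in ischemic and 6.44, 7.15 and 7.29 in normal arrays. The endothelial markers had negative differences in 7 of 7 genes, with a median of −1.15 and means of 6.16, 6.84, 7.69, 8.25 and 9.65 in ischemic and 7.96, 9.44 and 9.16 in normal arrays. Both lists were lowest in ischemic 1 and highest in ischemic 5, as were Fermt2 and Itga1, and the part of endothelial cells in these values was not tested. The integrin ligands of highest mean level were Npnt and Col4a1. Npnt, the nephronectin that alpha-8 binds, read 7.70 to 10.46 in ischemic and 9.96 to 10.11 in normal arrays. Col4a1 of basement membranes read 8.56 to 10.19 in ischemic and 9.26 to 10.53 in normal arrays. Npnt differed by −0.85 ± 0.60 (SE), and by −0.48 without ischemic 3. Col4a1 differed by −0.64 ± 0.42 (SE), and by −0.31 without normal 2.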

How the data were processed

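Gene expression was measured in FSP1-GFP-positive cells sorted from kidneys, in 5 ischemic and 3 normal arrays grouped by sample title. Per the labels' protocols, RNA came from the miRNeasy kit (Qiagen), WT-Ovation Pico (NuGEN) amplified it and FL-Ovation added biotin. The values the authors deposited are linear intensities per probe set. No source used here names the software, background correction or scaling behind them. Precision is limited by the number of arrays.

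Of 45101 probe sets, 64 controls were left out, 34945 had 1 gene symbol in the platform annotation, 932 had several and 9160 were not listed. Intensities were taken as log2(value + 16) and quantile normalized, and a gene was its probe set with the highest mean, which gave 18193 genes. Groups were compared with limma 3.58.1 (lmFit, eBayes; R 4.3.3), with p-values adjusted over all genes by Benjamini-Hochberg at a threshold of 0.05, and single genes by a two-sided exact permutation test over 56 splits. This fit was also run on simulated data whose means and variances were taken from these arrays. The simulated noise was normal and independent between genes, with no outlying array and no Xist split. It therefore cannot show how the fit behaves with those features, and no result here rests on it. Figures used matplotlib 3.10.9 in Python 3.11.15. Alternatives tried were a replicate block, median or ribosomal protein centring (42 genes), pseudocounts of 1 and 64, filters on dim genes, other probe set rules, eBayes with trend or robust, array weights, each array left out, and the arrays split by Xist signal.

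The members follow a rule on gene names, and that rule and the role, marker and partner lists were chosen with earlier results of these data known. Values in every array are given for each leukocyte integrin, tubule cadherin and epithelial integrin and each other member with an unadjusted p under 0.05 or groups apart, and Itgav, Itgb1 and Itga8 were also to be named. Up to 4 partner genes per list with an unadjusted p under 0.05 were named, or the 2 brightest where there were none. Itgb5, Itga9, Itgb8, Itga1 and the other cadherins described were chosen after their values were seen.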

Additional observations from a re-analysis of the deposited data

Results flagged for a closer look

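In 11 of the 43 members (25.6%) 1 of the 5 ischemic arrays was far from the others, with a gap to its nearest neighbour over 0.71 of the group's range, Dixon's limit for 5 values. The share over all genes was 11.5%, and chance flags about 1 in 20 groups. Ischemic 1 was the outlying array in 8 of the 11. It was the highest in 7 members (16.3%, against 6.22% of all genes), namely Cdh7 at 7.36, Cdh8 at 6.21, Cdh10 at 7.82, Cdh11 at 8.18, Cdh17 at 5.79, Cdh22 at 7.09 and Cdh26 at 7.64, and the lowest in Itga8 at 4.62. Ischemic 5 was the highest in Itgb4 at 6.53 and in Cdh20 at 4.43, where the other ischemic arrays read 4.27 to 4.30. All deposited intensities of Cdh20 lay near the floor, from 2.4 to 5.14. Among them ischemic 1 (5.14) was level with ischemic 5 (5.13), so the Cdh20 gap is absent before normalization. Ischemic 4 was the highest in Cdh19 at 6.67, while the other ischemic arrays read 4.23 to 4.53 and normal 2 read 6.11. The normal group, with 3 arrays, was not examined in this way.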

How the results depend on the processing

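No member passed the adjusted threshold in any setting; the lowest adjusted limma p was 0.0669, for Cdh16 with ribosomal protein centring, a scaling that moved the median of all genes to −0.10. The genes called over all genes numbered 177 (2 higher, 175 lower) with that centring, 1 with a pseudocount of 1, 15 above the 40th percentile, 2 with the mean of probe sets, 31 with eBayes trend, 5 with array weights, and 0 to 113 with 1 array left out (113 without normal 3), against 0 as reported. At an unadjusted p under 0.05, 384 genes were higher and 913 lower as reported, 234 and 1011 with median centring, and 134 and 1496 with ribosomal protein centring.

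Members lower at an unadjusted p numbered 5 with ribosomal protein centring (Cdh16, Itga6, Itgav, Itgb6, Itgb8), 1 above the 40th percentile, 1 above the 60th, 1 in high-Xist arrays and 2 to 3 with 1 array left out. Members higher numbered 2 with array weights (Itga9, Itgb5), 1 in low-Xist and 1 in high-Xist arrays, and 0 to 2 with 1 array left out. Members lower with groups apart numbered 1 above the 40th and 1 above the 60th percentile, 6 in low-Xist and 12 in high-Xist arrays, and 2 to 3 with 1 array left out. Members higher with groups apart numbered 0 with median centring, 0 with ribosomal protein centring, 0 above the 40th and 0 above the 60th percentile, 6 in low-Xist and 17 in high-Xist arrays, where groups are smallest, and 1 to 3 with 1 array left out. Over all 18193 genes, the groups were apart in 1876 lower and 1912 higher genes in low-Xist arrays. In high-Xist arrays, which hold 1 normal array, the same counts were 5980 and 6341. Counts of members apart in these small sets are therefore not read as a trait of the family. The filters removed Itgb6 and Itga10 as dim.

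The median of the tubule cadherins was −1.67 above the 40th and −2.34 above the 60th percentile, where fewer members remain, and that of the epithelial integrins was 0.079 in both. The median of the leukocyte integrins was 0.94 in high-Xist arrays. With 1 array left out, medians ranged between 0.28 and 0.67 for leukocyte integrins, −1.13 and −0.55 for tubule cadherins, −0.28 and −0.074 for epithelial integrins, −0.041 and 0.25 for matrix integrins, −0.72 and −0.083 for platelet integrins, and −0.16 and 0.12 for other cadherins.

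Signs turned in 5 named genes, and the cause was not tested. Itgal was −0.13 with median centring, −0.25 with ribosomal protein centring, −0.26 with array weights and −0.48 in low-Xist arrays. Itga3 was −0.066 with the probe set of largest spread and −0.16 in low-Xist arrays. In high-Xist arrays Cdh2 was 0.69 and Itga8 0.25. With 1 array left out, values ran −1.23 to 0.17 for Cdh2, −0.60 to 0.32 for Itga8, −0.21 to 0.22 for Itgal and −0.28 to 0.49 for Itgb4.

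Same-numbered replicates were compared for pairing: correlations of their deviations were 0.160, −0.088 and 0.101. Without the same measure for mismatched arrays, these few correlations cannot decide whether the numbers pair the arrays. The replicate block takes its differences only from arrays with a same-numbered partner in the other group. Ischemic 4 and ischemic 5 have none and so do not enter them. With the replicate block 0 genes were called, Itgb4 was −0.25, Cdh16 was −2.0 and Itgb6 −1.37. The members at an unadjusted p under 0.05 were Cdh16 and Itga1. Under that block 7 integrin ligands and 4 cadherin-side partners were lower at an unadjusted p (0 and 2 as reported). In addition, 1 integrin-side partner was higher (0 as reported), and Npnt was −1.62. Ischemic 5, which the block leaves out, held the highest array mean of the integrin ligands (7.61).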
